A study of Canis lupus familiaris with 2 samples.

Results

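Genes of 7 solute carrier (SLC) families that carry amino acids across membranes were compared between MDCK cells cultured under a low and a high column of medium. Their RNA was selected by gene symbol: SLC1A, SLC3A, SLC6A, SLC7A, SLC36A, SLC38A and SLC43A followed by digits. This rule reads no measured value, but the families were chosen with earlier results of these data known. The symbol rule found 60 of the 23510 features that both cultures list. One of them, SLC7A6OS, is the gene on the opposite strand of SLC7A6 and encodes no transporter, which leaves 59 transporter genes. MDCK cells are a dog kidney cell line and form a sheet of columnar epithelium. Each group was 1 culture on a semipermeable membrane, taken at day 3, and the cultures differed by the height of medium above the cells, which sets the static water pressure. The 2-cm-high-medium culture, called 2 cm below, stood under 2 cm H2O, and the paper calls such cells non-loaded. The 50-cm-high-medium culture, called 50 cm below, was loaded with 50 cm H2O. No drug or genetic change was named for either culture. Stranded mRNA libraries were sequenced as single-end reads, and the values are FPKM, a read count per gene corrected for the length of its exons and for library size.

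Because each medium height had 1 culture, none of the values below has replicates, no difference could be set against replicate error, and no test of a gene was possible. Pressure, culture and library cannot be told apart. A ratio is the FPKM value in 50-cm-high medium divided by that in 2-cm-high medium, with no pseudocount. It was taken where both values were above 1 FPKM, and a gene was counted as changed above 2 or below 0.5, the rule of the study's methods. How many reads each library held is not known. In these bulk samples, fewer cells that express a gene and less of its RNA per cell cannot be told apart.

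The epithelial identity of the cultures was visible in 13 kidney epithelial markers, of which 12 were above 1 FPKM in both cultures. The summed level of the 13 markers was 7059 FPKM at 2 cm and 6617 FPKM at 50 cm, and the keratins KRT8, KRT18, KRT7 and KRT19 made up most of both sums. PAX8 had 65.1 and 57.6 FPKM, and PAX2 had 28.3 and 27.9 FPKM. Cadherin 16, the kidney-specific cadherin encoded by CDH16, had 1.96 and 0.676 FPKM. CLDN2, a claudin of leaky tight junctions, had 35.5 and 17.2 FPKM. None of the 6 fibroblast markers and none of the 4 endothelial markers was above 1 FPKM in both cultures. Of the leukocyte markers, PTPRC and CD3E were listed at 0 in both, and CD14 had 4.82 and 3.77 FPKM. Of the proximal tubule markers, LRP2 and SLC22A6 were listed at 0 in both cultures, CUBN had 1.74 and 1.89 FPKM, and SLC5A2 had 5.72 and 5.06 FPKM. Of 6 collecting duct markers, the transcription factor GATA3 had 11.0 and 11.3 FPKM, the water channel AQP3 had 3.63 and 2.53 FPKM, and SCNN1A, a subunit of the epithelial sodium channel, had 3.02 and 2.02 FPKM. SCNN1B had 1.41 and 0.965 FPKM, and AQP2 and SCNN1G were listed at 0 in both.

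Amino acid transporters work as a network. Exchangers such as SLC1A5 and SLC7A5 swap one amino acid for another and keep the internal pool balanced, whereas loaders such as SLC38A1 and SLC38A2 use the sodium gradient to fill that pool. Light chains of SLC7 reach the membrane only when bound to a heavy chain of SLC3. In the kidney, the apical membrane of the tubule takes amino acids back from the filtrate and the basolateral membrane hands them to the blood. Transport into the cytosol and out of lysosomes also feeds mTORC1, the kinase complex that couples amino acid supply to growth.

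No member above 1 FPKM in both cultures passed 2-fold. Of the 60 members, 23 reached that level, and their ratios ran from 0.603 for SLC3A1 to 1.43 for SLC7A6. Over all 11057 features above 1 FPKM in both, 1.67% passed 2-fold, 0.389% upward and 1.28% downward, so a set of 23 genes with none past 2-fold does not stand apart from the background. Past 1.5-fold, no member was higher, against 2.13% of all features, and 1 member, SLC3A1, was lower, against 5.06%. With a pseudocount of 1 or quantile normalization, SLC3A1 no longer passed 1.5-fold. In either direction, 7.19% of all features passed 1.5-fold. The smaller differences were less evenly spread. The median log2 ratio was 0.20 over the 23 members and 0.01 over all features, and 15 members had a ratio above 1, compared with 52.6% of all features. Above a ratio of 1.2 lay 11 members (47.8%) and 15.0% of all features. Below 1/1.2 lay 3 of the 23 members and 16.9% of all features. These counts describe 1 pair of cultures, and genes of one pathway are not independent of each other. The cut at 1.2 was not among the rules written down for this work. The counts at 1.2 also depended on scaling. After quantile normalization, SLC38A1 (log2 ratio 0.245) and SLC38A10 (0.231) fell below a ratio of 1.2. SLC36A4 (-0.081) left the group below 1/1.2, and SLC6A6 (-0.307) entered it. The shares over all features were not recomputed for that scaling.

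**Figure D1:**
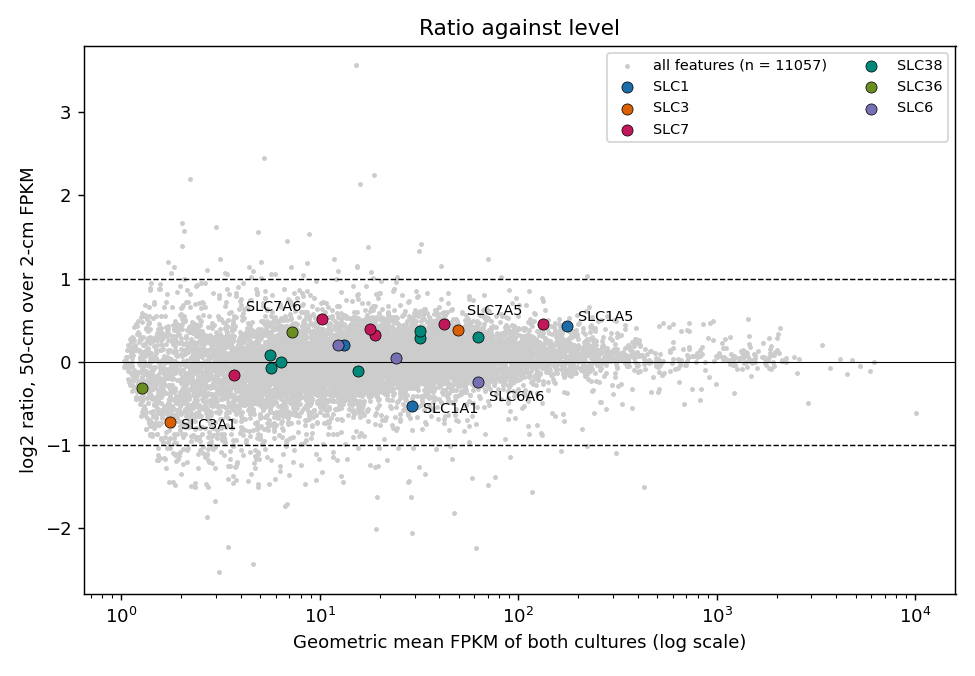
Ratios of 50-cm to 2-cm FPKM on the log2 scale (vertical axis) are plotted against the geometric mean FPKM of both cultures (horizontal axis, log scale) for all 11057 features above 1 FPKM in both (grey points) and for the 23 members (coloured by family). Dashed lines mark 2-fold changes; every member lies between them, SLC3A1 lies lowest, and the members at the highest levels, SLC1A5 and SLC7A5, lie above 0.

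Members at higher levels tended to have higher ratios. Across the 23 members, the Pearson correlation of mean log2 FPKM with the log2 ratio was 0.54, and across all 11057 features it was 0.21. The points of each correlation share the same pair of libraries, so it is given as a description. Of the 10 transporters above 20 FPKM in both cultures, 7 had a ratio above 1.2 as deposited. Of the 4542 features above that level in both, 15.1% did. The 3 other transporters at this level were SLC6A8, SLC6A6 and SLC1A1. After quantile normalization, SLC38A1 and SLC38A10 also lay below 1.2. The cuts at 20 FPKM and at a ratio of 1.2 were not among the rules written down for this work. The shares past these cuts are a description only.

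The transporters summed to 689 FPKM at 2 cm and to 827 FPKM at 50 cm, and they made up 0.115% and 0.135% of all FPKM, respectively. The level was concentrated in few genes. SLC1A5 had rank 1 among the transporters in both cultures and SLC7A5 rank 2, and together they held 38.6% of the summed transporter FPKM at 2 cm and 43.6% at 50 cm. Below them, the order differed between the cultures. SLC6A6 had rank 3 at 2 cm and rank 4 at 50 cm, where SLC38A1 had rank 3. SLC1A1 had rank 7 at 2 cm and rank 10 at 50 cm. Without replicates, which neighbours in this order differ beyond their spread is unknown. FPKM is scaled by exon length, so levels of different genes can be set side by side, within the limits of the authors' annotation.

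**Figure D2:**
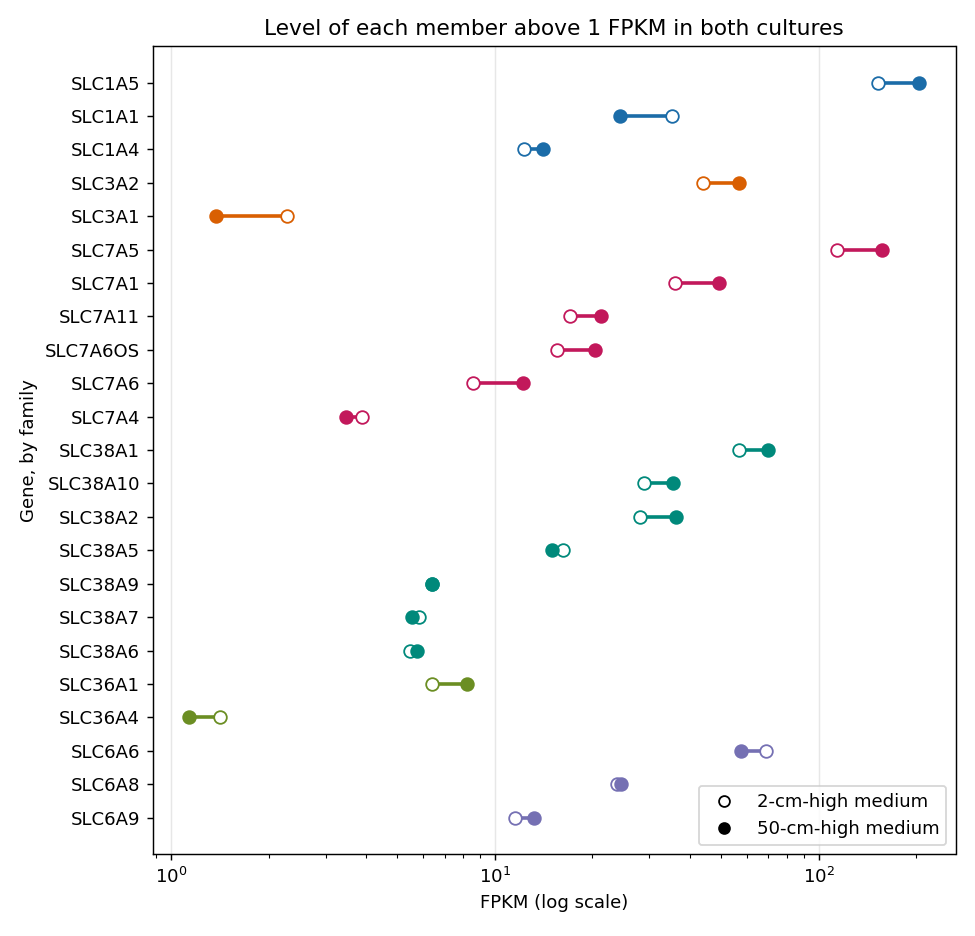
FPKM (horizontal axis, log scale) of each of the 23 members above 1 FPKM in both cultures, grouped and coloured by family, with open circles for 2-cm-high medium and filled circles for 50-cm-high medium. The filled circle lies to the right for 15 members, among them SLC1A5 (152 to 204 FPKM) and SLC7A5 (114 to 156 FPKM), and to the left for 8, with the widest gap on this scale for SLC3A1 (2.28 to 1.37 FPKM).

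The neutral amino acid exchangers of SLC1 and the acidic amino acid transporter of the same family lay on opposite sides of 1. SLC1A5 (ASCT2), an exchanger of glutamine and small neutral amino acids, had 152 FPKM at 2 cm and 204 FPKM at 50 cm. Its ratio of 1.34 exceeded that of 94.5% of all features above 1 FPKM. SLC1A4 (ASCT1), which exchanges alanine, serine and cysteine, had 12.3 and 14.1 FPKM (ratio 1.14). SLC1A1 (EAAT3), which takes up glutamate and aspartate and is the glutamate transporter of the renal brush border, had 35.2 FPKM at 2 cm and 24.3 FPKM at 50 cm. Its ratio of 0.692 was lower than that of all but 6.05% of features. At a mean level of 10 to 50 FPKM, 2.65% of 5062 features had a lower ratio than SLC1A1. SLC1A5 thus stood 4.33 times above SLC1A1 at 2 cm and 8.40 times above it at 50 cm.

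The other glutamate transporters of SLC1 were at or near 0. SLC1A3 and SLC1A6 were listed at 0 in both cultures. SLC1A2, the main glial glutamate transporter, had 0.0764 FPKM at 2 cm and 0.0280 FPKM at 50 cm, and SLC1A7 had 0.297 and 0.188 FPKM. SLC1A1 was therefore the one acidic amino acid transporter of SLC1 above 1 FPKM. The 5 listed genes of this class summed to 35.5 FPKM at 2 cm and to 24.5 FPKM at 50 cm.

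The heavy chains of SLC3 also lay on opposite sides of 1. SLC3A2 (4F2hc or CD98), which carries most light chains to the basolateral membrane, had 43.8 FPKM at 2 cm and 56.9 FPKM at 50 cm (ratio 1.30). SLC3A1 (rBAT), the heavy chain of the apical cystine and dibasic amino acid exchanger whose loss causes cystinuria, had 2.28 FPKM at 2 cm and 1.37 FPKM at 50 cm (ratio 0.603). Its ratio was the lowest of the 23 members as deposited, and 3.02% of all features lay lower. At a mean level of 1 to 10 FPKM, 6.57% of 3912 features had a lower ratio than SLC3A1. With a pseudocount of 1 or after quantile normalization, its log2 ratio of -0.73 moved to -0.466 or -0.502, and SLC1A1 was the lowest member, at -0.514 and -0.577. SLC7A9, the light chain that pairs with SLC3A1 in the proximal tubule, was listed at 0 in both cultures, as was SLC7A13, its other known partner. SLC3A2 stood 19.2 times above SLC3A1 at 2 cm and 41.4 times above it at 50 cm.

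The level of SLC3A1 was low enough for whole reads to show in its values. Among features at low FPKM, the ratio between the cultures was often a fraction of small whole numbers times 1.0977, the value that 1 read in each culture gives. The ratio of SLC3A1 matched 71 reads at 2 cm and 39 reads at 50 cm, to within 8e-06 of its value. A whole multiple of this pair would give the same ratio, and the same holds for every pair named below. SLC36A1, at 6.41 and 8.21 FPKM, matched 6 and 7 reads, and SLC6A8, at 23.9 and 24.6 FPKM, matched 16 and 15. A smallest pair therefore need not be the reads that were counted. Between 1 and 3 FPKM, 50.6% of 1002 features matched such a pair of at most 100 reads, and 2.89% did when the value of 1 read was deliberately set wrong. If 71 and 39 were the reads, the exact (Clopper-Pearson) 95% interval of the ratio was 0.397 to 0.903 from counting error alone, which leaves out the spread that replicate cultures would show.

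The light chains of SLC7 that bind SLC3A2 were all on the same side where they were measured above 1 FPKM. SLC7A5 (LAT1), which brings in leucine and other large neutral amino acids in exchange for glutamine, had 114 FPKM at 2 cm and 156 FPKM at 50 cm (ratio 1.37). SLC7A11 (xCT), the cystine and glutamate exchanger that supplies cysteine for glutathione, had 17.1 and 21.3 FPKM (ratio 1.25). SLC7A6 (y+LAT2), which exports cationic amino acids against neutral ones and sodium, had 8.55 and 12.2 FPKM, and its ratio of 1.43 was the highest of the members. Of all features, 96.8% lay below the ratio of SLC7A6 and 95.4% below that of SLC7A5.

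The other light chains were below 1 FPKM. SLC7A7 (y+LAT1), the basolateral partner that is lost in lysinuric protein intolerance, had 0.408 FPKM at 2 cm and 0.560 FPKM at 50 cm, a ratio that 4 and 5 reads give. SLC7A8 (LAT2), the large neutral exchanger of the proximal tubule, had 0.0741 and 0.0813 FPKM, a ratio that 1 read in each culture gives. SLC7A10 was listed at 0 in both. Summed over the 6 light chains of SLC3A2, the level was 140 FPKM at 2 cm and 191 FPKM at 50 cm (ratio 1.36). The light chains summed to 3.20 times SLC3A2 at 2 cm and to 3.35 times at 50 cm. SLC7A5 made up 81.4% and 82.1% of the light chains. Levels of SLC3A2 RNA and of its summed light chains, mostly SLC7A5, thus differed between the cultures by similar factors, with their proportions shifted little.

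SLC7A6OS, which lies beside SLC7A6 in the gene order of the RefSeq dog assembly UU_Cfam_GSD_1.0, had 15.6 FPKM at 2 cm and 20.4 FPKM at 50 cm (ratio 1.31). The libraries kept strand, but whether the counting used it is not given in the sources used here, so reads of SLC7A6 and SLC7A6OS may not be fully separate.

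The cationic amino acid transporters of SLC7 were represented mainly by SLC7A1. SLC7A1 (CAT1), which takes up arginine, lysine and ornithine, had 36.1 FPKM at 2 cm and 49.3 FPKM at 50 cm (ratio 1.37), above the ratio of 95.2% of features. SLC7A4, a relative without established transport activity, had 3.90 and 3.48 FPKM (ratio 0.892). SLC7A3 had 0.146 and 0.152 FPKM, and SLC7A2 and SLC7A14 were listed at 0 in both cultures.

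In SLC38, both measured loaders of system A had ratios above 1.2 as deposited, and SLC38A1 fell below 1.2 after quantile normalization. The lysosomal members SLC38A7 and SLC38A9 had ratios of 0.952 and 0.995, and no SLC38 gene above 1 FPKM passed 1.5-fold. SLC38A1 (SNAT1), a sodium-coupled importer of glutamine and alanine, had 56.7 FPKM at 2 cm and 69.9 FPKM at 50 cm (ratio 1.23). SLC38A2 (SNAT2), the system A transporter known to rise on amino acid shortage and in hypertonic medium, had 28.0 and 36.2 FPKM (ratio 1.29). SLC38A1 and SLC38A2 are direct neighbours in the gene order of the RefSeq assembly, and SLC38A1 stood 2.02 times above SLC38A2 at 2 cm and 1.93 times above it at 50 cm. SLC38A4, the remaining system A gene, was listed at 0 in both.

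SLC38A5 (SNAT5), a system N transporter that moves glutamine in either direction, had 16.2 and 15.0 FPKM (ratio 0.922), and SLC38A3, the system N transporter of kidney and liver, had 0.502 and 0.454 FPKM. SLC38A9, the lysosomal arginine sensor upstream of mTORC1, had 6.41 FPKM at 2 cm and 6.38 FPKM at 50 cm. SLC38A7, which exports glutamine from lysosomes, had 5.83 and 5.55 FPKM. The ratios of SLC38A9 and SLC38A7 moved above 1 when the cultures were quantile normalized. SLC38A6 had 5.48 and 5.77 FPKM (ratio 1.05), and SLC38A10 had 28.9 and 35.4 FPKM (ratio 1.22). SLC38A8 was listed at 0 in both. SLC38A11 had 0.147 and 0.323 FPKM, a ratio that 1 read against 2 gives.

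Of the proton-coupled SLC36 transporters, SLC36A1 (PAT1), which carries small neutral amino acids out of lysosomes and across the apical membrane of the intestine, had 6.41 FPKM at 2 cm and 8.21 FPKM at 50 cm (ratio 1.28). SLC36A4 (PAT4), with high affinity for proline and tryptophan, had 1.42 and 1.14 FPKM (ratio 0.802). The ratio of SLC36A4 matched 26 reads against 19 or a whole multiple of them. If 26 and 19 were the reads, the exact 95% interval from counting error alone was 0.420 to 1.51, which includes 1. SLC36A2 and SLC36A3, which follow SLC36A1 in gene order, were listed at 0 in both cultures. The SLC43 facilitators were all below 1 FPKM. SLC43A1 (LAT3) had 0.148 FPKM at 2 cm and was listed at 0 at 50 cm, SLC43A2 (LAT4) had 0.664 and 0.964 FPKM, and SLC43A3, which carries purine bases rather than amino acids, had 0.877 and 0.995 FPKM.

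SLC6 was the largest family, with 19 genes, and 3 of them were above 1 FPKM in both cultures. SLC6A6 (TauT), which accumulates the osmolyte taurine, had 68.6 FPKM at 2 cm and 57.6 FPKM at 50 cm (ratio 0.840). Of all features above 1 FPKM in both cultures, 17.7% had a lower ratio than SLC6A6. Among the 2083 features with a mean level above 50 FPKM, 6.63% did. SLC6A8, the creatine transporter, had 23.9 and 24.6 FPKM (ratio 1.03), and SLC6A9 (GlyT1), the glycine transporter, had 11.5 and 13.2 FPKM (ratio 1.15). SLC6 was the one family whose summed FPKM was lower in 50-cm-high medium, at 96.2 against 105 FPKM, and SLC6A6 made up most of both sums.

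The remaining SLC6 genes were at trace level or at 0. SLC6A17, a vesicular neutral amino acid transporter, had 0.519 and 0.608 FPKM, a ratio that 44 and 47 reads give. SLC6A12 (BGT1), the betaine and GABA transporter of the hypertonic renal medulla, was listed at 0 in 2-cm-high medium and had 0.0543 FPKM in 50-cm-high medium. Its neighbour in gene order, the GABA transporter SLC6A13, was listed at 0 and at 0.0540 FPKM. SLC6A20, an imino acid transporter, and SLC6A4, the serotonin transporter, were likewise listed at 0 in 2-cm-high medium, with 0.0400 and 0.0307 FPKM in 50-cm-high medium. SLC6A14 and SLC6A7 had 0.0538 and 0.0273 FPKM in 2-cm-high medium and were listed at 0 in 50-cm-high medium. Among the genes listed at 0 in both cultures were SLC6A2, SLC6A3, SLC6A5, SLC6A11, SLC6A15, SLC6A16, SLC6A18 and SLC6A19. They include SLC6A19 (B0AT1) and its neighbour SLC6A18, the neutral amino acid transporters of the proximal tubule brush border. TMEM27 (collectrin), their membrane partner in the kidney, was also listed at 0 in both.

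By substrate class, the summed level was higher in 50-cm-high medium for the neutral exchangers of SLC1 (165 and 218 FPKM, ratio 1.33), the SLC7 light chains (ratio 1.36), the cationic transporters (40.2 and 52.9 FPKM, ratio 1.32), the heavy chains (46.1 and 58.2 FPKM, ratio 1.26) and system A (84.8 and 106 FPKM, ratio 1.25). It was lower for the acidic amino acid class (ratio 0.690), for the SLC6 class of osmolytes, GABA and creatine (92.5 and 82.4 FPKM, ratio 0.890) and for system N (16.7 and 15.4 FPKM, ratio 0.921). A class sum follows its highest gene. The heavy chain sum thus follows SLC3A2 although SLC3A1 lay on the other side, and the cationic sum follows SLC7A1 although SLC7A4 did. The median log2 ratio was -0.18 for the heavy chains and 0.14 for the cationic class, each over 2 genes above 1 FPKM. By family, the median log2 ratio was 0.42 for the 6 SLC7 members above 1 FPKM, with SLC7A6OS among them, 0.19 for 3 SLC1 genes, 0.07 for 7 SLC38 genes, 0.04 for 3 SLC6 genes, 0.02 for 2 SLC36 genes and -0.18 for 2 SLC3 genes. With so few genes in a family, these medians rest on single genes, and those of SLC1 and SLC3 changed sign with the FPKM minimum, to -0.169 for SLC1 above 0.1 FPKM and to 0.376 for SLC3 above 5 FPKM.

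**Figure D3:**
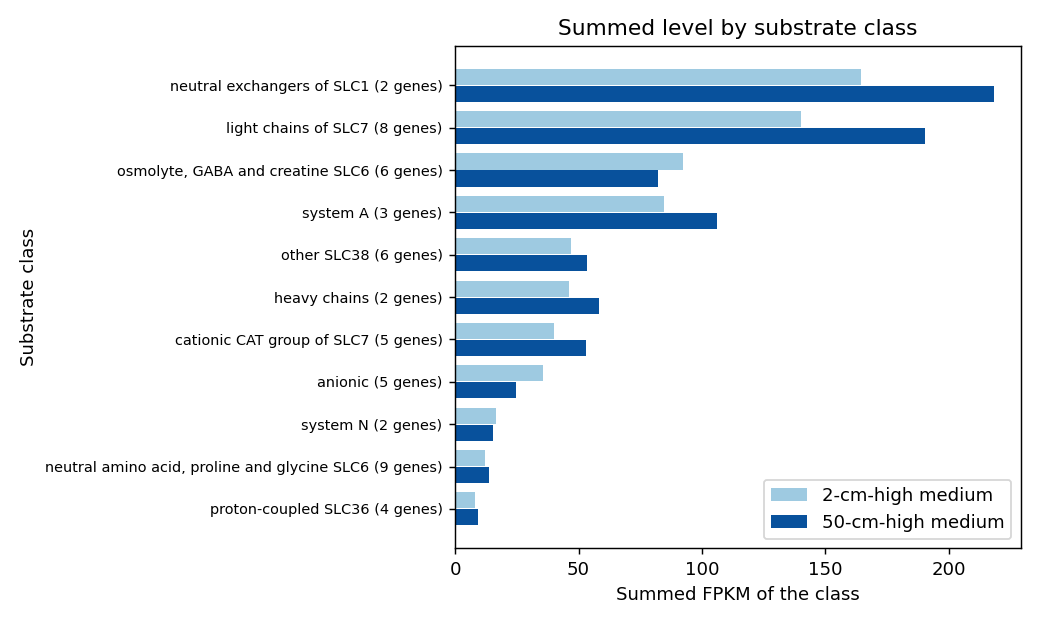
Summed FPKM (horizontal axis, from 0) of each substrate class with a sum above 1 FPKM, in 2-cm-high medium (light bars) and 50-cm-high medium (dark bars), each 1 culture without error bars. The dark bar is the longer for 8 of the 11 classes, and is the shorter for the acidic amino acid class (35.5 to 24.5 FPKM), for the osmolyte, GABA and creatine class (92.5 to 82.4 FPKM) and for system N (16.7 to 15.4 FPKM).

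Counted over all 60 members, 23 were above 1 FPKM in both cultures and none was above 1 FPKM in only one. A further 10 were above 0 in both cultures and below 1 FPKM. Another 7 were listed at 0 in one culture and 20 in both. A value of 0 in these files need not mean that the RNA was absent. PHGDH, the first enzyme of serine synthesis, was listed at 0 in both cultures. PSAT1 and PSPH, which follow it in the same pathway, had 303 and 311 FPKM and 50.5 FPKM in each culture, respectively. Whether PHGDH RNA was absent from these cells was not tested.

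Other genes that handle amino acids were taken from fixed lists. Of 20 further amino acid and peptide transporters and partners, 17 were in the files, 8 were above 1 FPKM in both cultures, and none passed 2-fold. Their median log2 ratio was 0.17, from CTNS, the lysosomal cystine exporter, at 9.92 and 8.97 FPKM (ratio 0.904), to SLC16A10, the basolateral aromatic amino acid facilitator, at 1.34 and 1.70 FPKM (ratio 1.27).

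For the integrated stress response, in which ATF4 raises amino acid transporters and synthesis enzymes, 31 genes were listed and 29 were in the files. ASNS and CHAC1 were not. Above 1 FPKM in both cultures were 28 genes, with a median log2 ratio of 0.09 and none past 2-fold. ATF4 itself had 505 FPKM at 2 cm and 536 FPKM at 50 cm (ratio 1.06). TRIB3, a target of ATF4, was the highest, at 46.5 and 66.5 FPKM (ratio 1.43), followed by MTHFD2, the mitochondrial one-carbon enzyme, at 96.3 and 137 FPKM (ratio 1.43). NUPR1, a stress-induced nuclear protein, was the lowest, at 161 and 95.3 FPKM (ratio 0.591), and DDIT4, an inhibitor of mTORC1, had 59.9 and 38.5 FPKM (ratio 0.643).

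The glutathione list also holds genes of glutathione breakdown and of cysteine synthesis. Of its 10 genes above 1 FPKM in both cultures, 1 passed 2-fold, against 1.67% of all features. GGT1, the brush border enzyme that begins the breakdown of extracellular glutathione, had 33.0 FPKM at 2 cm and 14.5 FPKM at 50 cm (ratio 0.440). CTH, which makes cysteine from cystathionine, had 84.5 and 152 FPKM (ratio 1.80), the highest of the list, and TXNRD1, thioredoxin reductase, had 74.9 and 127 FPKM (ratio 1.70). GCLC, the catalytic subunit of the first step of glutathione synthesis, had 100.4 and 135 FPKM (ratio 1.35). The median log2 ratio of the list was 0.18.

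The hypertonic and osmolyte list, which relates to SLC6A6, SLC6A12 and SLC38A2, had 6 genes above 1 FPKM in both cultures, with a median log2 ratio of -0.02 and none past 2-fold. AKR1B1, which makes sorbitol, had 82.0 and 111 FPKM (ratio 1.35), and PNPLA6, which degrades phosphatidylcholine, had 10.3 and 8.94 FPKM (ratio 0.864), the lowest of the list. NFAT5, the transcription factor of the hypertonic response, had 4.68 and 4.45 FPKM (ratio 0.951).

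**Figure D4:**
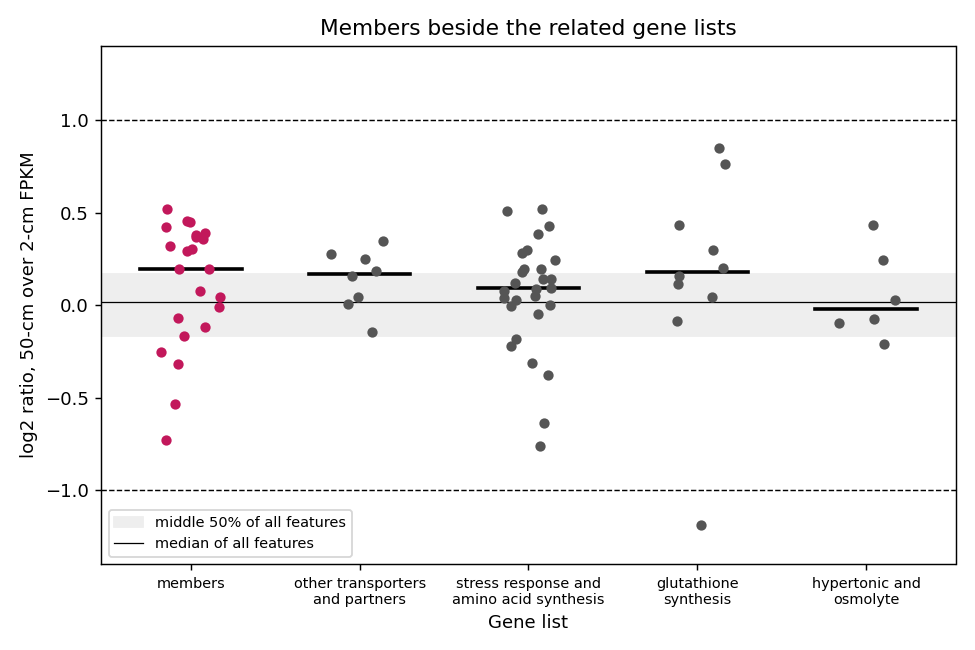
Ratios of 50-cm to 2-cm FPKM on the log2 scale (vertical axis) of each gene above 1 FPKM in both cultures, for the 23 members and 4 related lists (horizontal axis), where points are genes, spread sideways to be visible, and thick lines are medians. The grey band is the middle 50% of all features and dashed lines mark 2-fold changes; GGT1 in the glutathione list is the single point past them.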

How the data were processed

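RNA of 1 MDCK culture per medium height was sequenced by the authors as stranded mRNA libraries with 75-base single-end reads. Per the paper and the submitters' processing notes, mapping used TopHat 2.0.13, which ran with SAMtools 0.1.19 and Bowtie 2 2.2.3, on the dog build CanFam3.1. The deposited FPKM values were calculated by the authors with Cuffnorm 2.2.1. The annotation and the scaling method are not given in the sources used here. FPKM corrects for library size, and where that size is the total of reads, a change in abundant genes shifts all others. A low value rests on few reads. Depth is unknown.

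Ratios were computed without a pseudocount from values above 1 FPKM in both cultures. No test was run. The members and lists were chosen with earlier results of these data known. The substrate classes, the related lists and the naming rule (every member, and in each list the genes past 2-fold and the extreme ratios) were written down for this work. The ratio of 1.2, the cut on FPKM level and the correlation with level were not among these rules. MTHFD2, DDIT4, ATF4, TXNRD1, GCLC, NFAT5, PHGDH, PSAT1, PSPH and TMEM27 were named after their values were seen. Smallest whole-read pairs were sought up to 100 reads at a relative tolerance of 8e-06, with intervals covering counting error only. That search was added after seeing the values. Members were matched by symbol to RefSeq (60 of 60, assembly UU_Cfam_GSD_1.0), for gene order only. The scripts were tested on simulated data and used Python 3.11.15, numpy 2.4.6, pandas 2.3.3, scipy 1.17.1 and matplotlib 3.10.9. Alternatives were other FPKM minima, a pseudocount, recentring, quantile normalization, a 1.5-fold threshold and, added after seeing the data, leaving out SLC7A6OS. The values of 1 member and 1 marker gene are not reported here.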

Additional observations from a re-analysis of the deposited data

How the results depend on the processing

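With 1 culture per medium height, these alternatives show the effect of processing and not of replication. No paired analysis was possible because each group holds 1 sample. The median log2 ratio of the members, 0.197, kept its sign under each alternative that recomputed it, and moved furthest with FPKM above 5 in both cultures, to 0.296. SLC3A1 lost its place past 1.5-fold with a pseudocount of 1 (-0.466) and with quantile normalization (-0.502). With FPKM above 0.1 in both cultures, 1 member was higher past 2-fold (SLC38A11), and the SLC1 median reversed to -0.169. With FPKM above 0 in both, 1 member was higher and 1 lower past 2-fold (SLC1A2), the SLC1 median was -0.532 and the acidic class median -0.656. At that minimum, the further transporters had 1 gene higher and 1 lower, the osmolyte list had 1 higher, and the glutathione list had 3 lower. With FPKM above 5 in both, the SLC3 and heavy chain medians reversed to 0.376, as SLC3A1 dropped out. The SLC36 family and class medians moved to 0.357 and the cationic class median to 0.449, each resting on 1 gene. A pseudocount of 1 moved the SLC3 and heavy chain medians to -0.048. Quantile normalization moved the SLC36 family and class medians to 0.167, and reversed SLC38A7 to 0.009 and SLC38A9 to 0.057. At 1.5-fold, 1 of 23 members was lower and the stress response list had 2 of 28 genes lower. The glutathione list had 2 of 10 genes higher and 1 lower. Of all features, 2.13% were higher and 5.06% lower past 1.5-fold. Recentring, a pseudocount of 0.1 and leaving out SLC7A6OS turned no direction.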
